A study of Mus musculus with 12 samples.

Results

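The 10 genes described here serve the folding of proteins in the endoplasmic reticulum (ER) and the disposal of misfolded ones, Xbp1 as a transcription factor. They were measured in hepatocytes of p16-Tom mice. The genes Hspa5, Hsp90b1, Xbp1, Dnajb9, Pdia4, Pdia6, Sdf2l1, Creld2, Manf and Herpud1 were taken by symbol from the 54839 features of the deposited table, in which all 10 were found. All 10 passed the filter on low counts and were among the 17121 genes tested over the 12 libraries. The RNA-seq covered 4 groups of 3 libraries, namely Tom- oil, Tom+ oil, Tom- CCl4 and Tom+ CCl4. All groups came from male heterozygous p16-Tom mice on the C57BL/6 background, in which a tamoxifen-dependent Cre driven by p16Ink4a switches on the red protein tdTomato from the R26 locus, and all mice received tamoxifen (80 mg/kg). The mice were injected intraperitoneally every 3 days with corn oil or with CCl4 (1 mL/kg, as 20% in corn oil), a hepatotoxic solvent whose damage is centred on the central veins. The labels give no age for the mice. Live cells of a hepatocyte preparation were sorted by flow cytometry into red (Tom+) and not red (Tom-) cells, so that Tom+ marks cells in which p16Ink4a was active when tamoxifen was given, whatever their later state. The values are library-wide averages, in which fewer cells of a type and less RNA per cell cannot be told apart.

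Hepatocytes secrete most of the proteins of blood plasma, and these enter the ER as unfolded chains. Chaperones such as BiP, the product of Hspa5, hold the chains until they fold, protein disulfide isomerases join their cysteines, and chains that fail are returned to the cytosol for degradation. When unfolded chains accumulate, the sensors IRE1, PERK and ATF6 in the ER membrane start the unfolded protein response, in which the transcription factors XBP1 and ATF6 raise the genes of ER folding through short promoter elements. The genes described here are textbook members or targets of this response.

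The promoters of the members are shown because the best known elements of the response can be read in them. RefSeq promoters (build GRCm38.p6, which has the coordinates of the mm10 genome of the table), from 250 bases before to 50 bases after the annotated start, were found for 9 of the 10 members; Manf had no entry. The ER stress element (ERSE) is CCAAT followed by 9 bases of any kind and CCACG, and ERSE-II is ATTGG followed by 1 base and CCACG. In the stretches of the 5 promoters with such an element, written 5′ to 3′ along the gene's strand, capitals mark the fixed letters of an ERSE or ERSE-II, which read CGTGG and ATTGG where the match is on the opposite strand. They lie at chr2:34772005-34772063 (+) for Hspa5, chr10:86705513-86705676 (-) for Hsp90b1, chr12:17266471-17266529 (+) for Pdia6, chr15:88819500-88819558 (+) for Creld2 and chr8:94386357-94386407 (+) for Herpud1.
Hspa5: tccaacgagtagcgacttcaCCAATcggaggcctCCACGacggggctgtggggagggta
Hsp90b1: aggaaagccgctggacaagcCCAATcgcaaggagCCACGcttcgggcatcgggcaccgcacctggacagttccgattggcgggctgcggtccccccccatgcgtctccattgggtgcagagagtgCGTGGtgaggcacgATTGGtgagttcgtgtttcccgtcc
Pdia6: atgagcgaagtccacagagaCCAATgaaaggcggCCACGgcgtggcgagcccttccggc
Creld2: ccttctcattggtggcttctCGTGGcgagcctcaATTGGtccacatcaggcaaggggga
Herpud1: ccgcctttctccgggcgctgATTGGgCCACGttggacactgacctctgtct

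An exact ERSE was present in 4 of the 9 member promoters and in 39 of all 32851 promoters of the same length (0.119%), with both strands searched. Hsp90b1 carried 2 of them, from base -212 to -194 on its own strand and from -107 to -89 on the opposite strand, and in Hspa5 the match lay at -65 to -47. Herpud1 held an ERSE-II at -52 to -42, a motif present in 12 promoters (0.0365%). The UPRE (TGACGTGG) was in none of the 9 member promoters and in 222 of all (0.676%). The core CCACG, which is also part of ERSE and ERSE-II, was found in 8 of the 9 members, with Xbp1 as the exception, and in 32.8% of all promoters. These matches describe letters in 300-base windows and do not show that a factor was bound there.

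**Figure D1:**
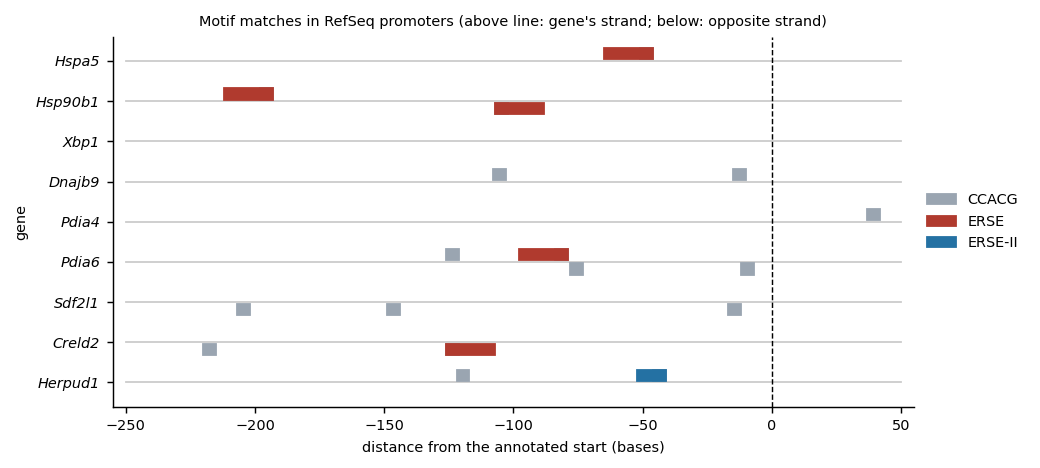
Positions of exact motif matches in the RefSeq promoters of 9 members, with the distance from the annotated start in bases on the x axis and a line for each gene; boxes above a line are on the gene's strand and boxes below it on the opposite strand. ERSE (red) is seen in Hspa5, Hsp90b1, Pdia6 and Creld2 and ERSE-II (blue) in Herpud1, whereas Xbp1 has no match; CCACG cores inside an ERSE or ERSE-II are covered by its box.

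Before the results, 2 oil libraries have to be set apart. Total counts per library ranged from 37568669 to 75331523, and in each library the 8 hepatocyte markers of a fixed list (Alb, Apoa1, Ttr and others) were all above 3 counts, with a summed level of 90411 to 132761 CPM (counts scaled to a common library size). The feature taken as the tdTomato reporter was at 120 to 263 CPM in Tom- CCl4 and at 1316 to 1369 CPM in Tom+ CCl4. In oil, the library labelled Tom- oil replicate 1 had 1794 CPM of it, while the library labelled Tom+ oil replicate 2 had 135 CPM, so the reporter went against both labels. The labels were kept as deposited, and the members' test results that use the oil libraries, and the calls of the gene lists, are also given without these 2. CPM values are scaled by the TMM method. Fold changes are log2 differences from edgeR's quasi-likelihood fit of the 12 libraries, and a difference passed the test at a Benjamini-Hochberg adjusted p under 0.05 over all genes tested. Nothing in the labels says which libraries come from separate mice, so the p-values measure the spread between these libraries, which may in part be technical.

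The members differed widely in level. Per unit of transcript length, as TPM computed from the deposited counts and lengths, the mean over the 12 libraries was 572 ± 148 (SD, n = 12) for Hspa5, the ER member of the HSP70 family. Hsp90b1, which encodes the ER paralog of the cytosolic chaperone HSP90, followed with 469.6 ± 83.6 TPM, and Herpud1, a membrane protein that helps assemble the degradation machinery, with 412 ± 123 TPM. The disulfide isomerase genes Pdia4 and Pdia6 had 219.8 ± 43.3 and 184 ± 39.7 TPM. Lower still were Xbp1 at 99.4 ± 18.6 TPM, Creld2 at 84.3 ± 31.4 TPM, Sdf2l1 at 71.6 ± 27.7 TPM, Dnajb9 at 65.7 ± 12.8 TPM and Manf at 63.3 ± 17.0 TPM. The step from Pdia6 to Xbp1 held in 12 of 12 libraries, and those from Hspa5 to Hsp90b1 and from Herpud1 to Pdia4 in 11. Hsp90b1 exceeded Herpud1 in 8 libraries only, and the last 4 genes changed places in the order from library to library. Several members share genome positions with other annotated features, which bears on these levels: Hsp90b1 overlaps 1810014B01Rik, Gm15344 and Gm25745 and its counts were not whole in any library, Manf overlaps Dcaf1, Rbm15b and 4930524O07Rik, and Herpud1, Pdia4, Pdia6 and Dnajb9 overlap Gm15890, Mir704, Atp6v1c2 and Mir5627. The libraries are strand-specific, but the counting program and its strand setting are not given in the sources used here.

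Hspa5 (chr2:34771970-34777547) had 1372, 1338 and 919.9 CPM in the libraries labelled Tom- oil replicates 1, 2 and 3, and 1132, 1376 and 779.8 CPM in those labelled Tom+ oil. After CCl4 it had 1287, 1138 and 712 CPM in Tom- and 838, 813 and 602 CPM in Tom+. Replicate 3 was the lowest of every group, and all 3 Tom+ CCl4 libraries were below all but 2 of the other 9. Hsp90b1 (chr10:86690209-86705509) showed a narrower spread in oil, with 948, 919 and 865 CPM in Tom- and 852, 995 and 768 CPM in Tom+. In CCl4 it stood at 956, 849.8 and 611 CPM in Tom- and at 677, 657 and 526 CPM in Tom+. The Tom+ CCl4 libraries lay below every oil library, whereas Tom- CCl4 overlapped with both oil groups.

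Pdia6 (chr12:17266545-17284770), one of the enzymes that form and rearrange disulfide bonds, had 335, 325 and 383 CPM in Tom- oil and 304, 347 and 325 CPM in Tom+ oil. It had 358, 299 and 224 CPM in Tom- CCl4 and 217, 201 and 183 CPM in Tom+ CCl4. Every Tom+ CCl4 library was thus below all other libraries of the series. The related Pdia4 (chr6:47796141-47813430) ranged from 197 to 305 CPM over the 6 oil libraries, from 161 to 251 CPM in Tom- CCl4 and from 159.8 to 191 CPM in Tom+ CCl4. Its Tom+ CCl4 libraries lay below all oil libraries but enclosed the lowest Tom- CCl4 library.

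Sdf2l1 (chr16:17130138-17132383), which encodes a partner of BiP and its co-chaperones, was the member with the clearest step between treatments. In oil it had 54.7, 48.9 and 35.8 CPM in Tom- and 43.4, 47.9 and 35.8 CPM in Tom+, and in CCl4 it had 35.1, 25.3 and 17.1 CPM in Tom- and 26.3, 16.6 and 16.7 CPM in Tom+. All 6 values of CCl4 were under all 6 values of oil, with a gap of less than 1 CPM between the highest of the former and the lowest of the latter. Dnajb9 (chr12:44205559-44210326), a J-domain co-chaperone of BiP, ranged from 43.8 to 91.1 CPM in oil and from 62.5 to 75.9 CPM in CCl4, where both fractions overlapped.

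Creld2 (chr15:88819646-88826683) and Manf (chr9:106838312-106891979) encode ER proteins that are induced by ER stress and can be secreted. Creld2 had 84.4, 77.4 and 42.3 CPM in Tom- oil, 52.7, 58.5 and 37.3 CPM in Tom+ oil, 62.0, 48.2 and 34.7 CPM in Tom- CCl4 and 39.8, 27.4 and 22.8 CPM in Tom+ CCl4. It had the widest range of the 10 members, 3.71-fold between the highest and the lowest library. Manf had 137, 119.8 and 78.8 CPM in Tom- oil, 119.0, 119.3 and 73.3 CPM in Tom+ oil, 112, 93.8 and 63.2 CPM in Tom- CCl4 and 82.2, 76.5 and 57.9 CPM in Tom+ CCl4. As in Hspa5, replicate 3 was the lowest of each group for both genes.

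Xbp1 (chr11:5520659-5525893), the transcription factor whose mRNA is spliced by IRE1, had 156, 148 and 105 CPM in Tom- oil and 174, 182 and 112 CPM in Tom+ oil. In CCl4 it had 139, 140.0 and 121 CPM in Tom- and 134, 118 and 109 CPM in Tom+. In these TMM-scaled values, Tom+ was above its same-numbered Tom- library in all 3 oil pairs and below it in all 3 CCl4 pairs. In TPM, Tom+ CCl4 was above Tom- CCl4 in pairs 1 (109 against 96.4) and 3 (82.6 against 78.4). It was below in pair 2 (95.2 against 96.1). In oil the TPM of Tom+ was above Tom- in pairs 1 and 2 and below it in pair 3 (78.1 against 78.5). The counts do not separate the spliced from the unspliced form. Herpud1 (chr8:94386438-94395377) had 509, 478 and 613 CPM in Tom- oil and 266, 265 and 632 CPM in Tom+ oil, where replicate 3 stood apart. In CCl4 it had 384, 441 and 414 CPM in Tom- and 274, 306 and 325 CPM in Tom+, without overlap.

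**Figure D2:**
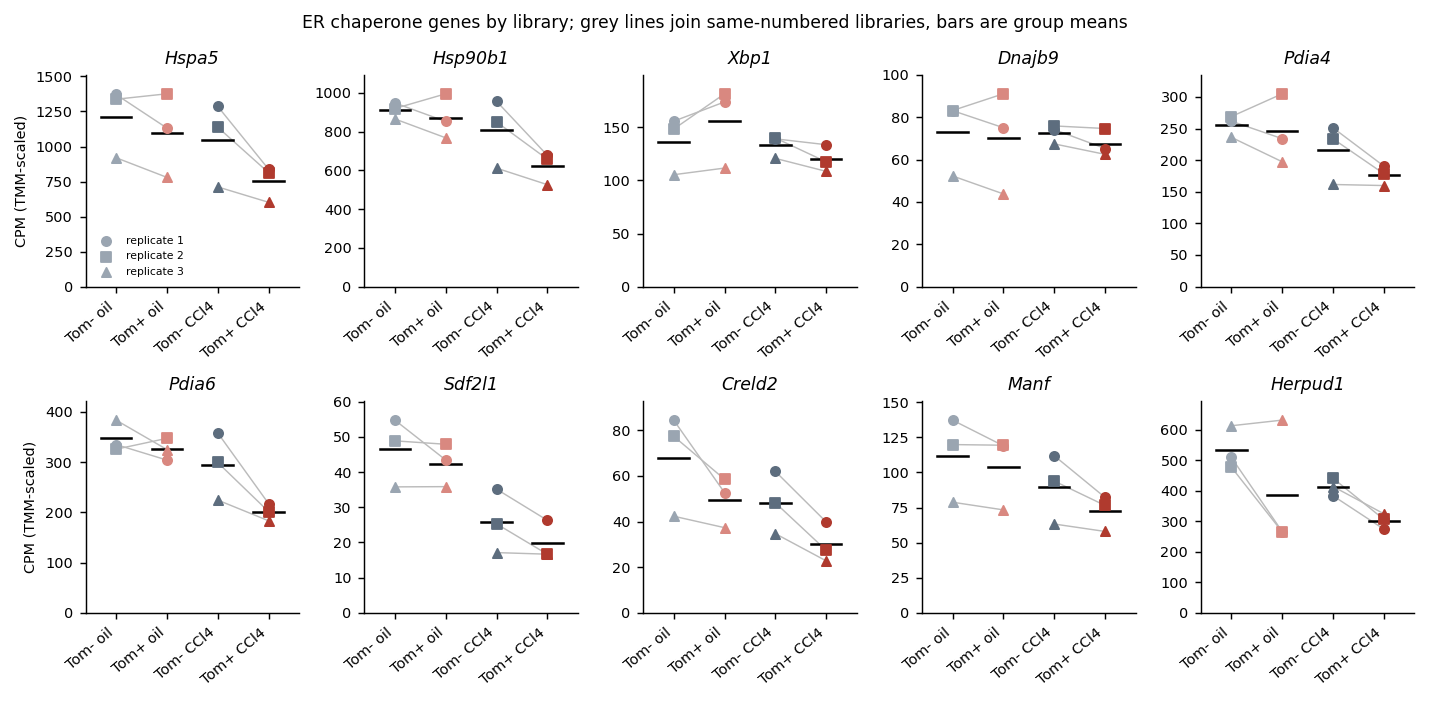
CPM (TMM-scaled, y axis from 0) of the 10 members in the 4 groups of 3 libraries; marker shapes give the replicate number, grey lines join same-numbered Tom- and Tom+ libraries of a treatment and black bars are group means. In CCl4 every line falls from Tom- to Tom+, and Herpud1 replicate 3 in oil (613 and 632 CPM) stands far above its Tom+ oil neighbours (266 and 265 CPM).

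Herpud1 followed the other members least from library to library, and the other 9 did so to unequal degrees. Over the 12 libraries, the median Pearson correlation of a member's log2 CPM with the other 9 was between 0.51 (Dnajb9) and 0.88 (Hsp90b1) for the 9 genes, and 0.09 for Herpud1. The closest pair was Hspa5 with Manf (r = 0.97), while Dnajb9 had an r of 0.06 with Pdia6, 0.26 with Sdf2l1 and 0.39 with Hsp90b1, and Xbp1 one of 0.39 with Pdia6. After each group's mean was taken away, the median for Herpud1 was -0.61, against 0.42 to 0.87 for the others. These values describe libraries that share treatment, fraction and depth. The mean of the members' standardized log2 CPM was highest in the library labelled Tom- oil replicate 1 (1.04) and lowest in Tom+ CCl4 replicate 3 (-1.40), and within each of the 4 groups replicate 3 was the lowest. Among 7747 genes with a mean of at least 10 CPM, the 5 whose log2 CPM followed this mean most closely over the 12 libraries were Hyou1 (r = 0.99), Dnajb11 (r = 0.95), Gas1 (r = 0.95), Slc22a7 (r = 0.94) and Tmed9 (r = 0.94). Hyou1 and Dnajb11 encode ER chaperones, and Tmed9 a protein of transport vesicles between the ER and the Golgi.

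**Figure D3:**
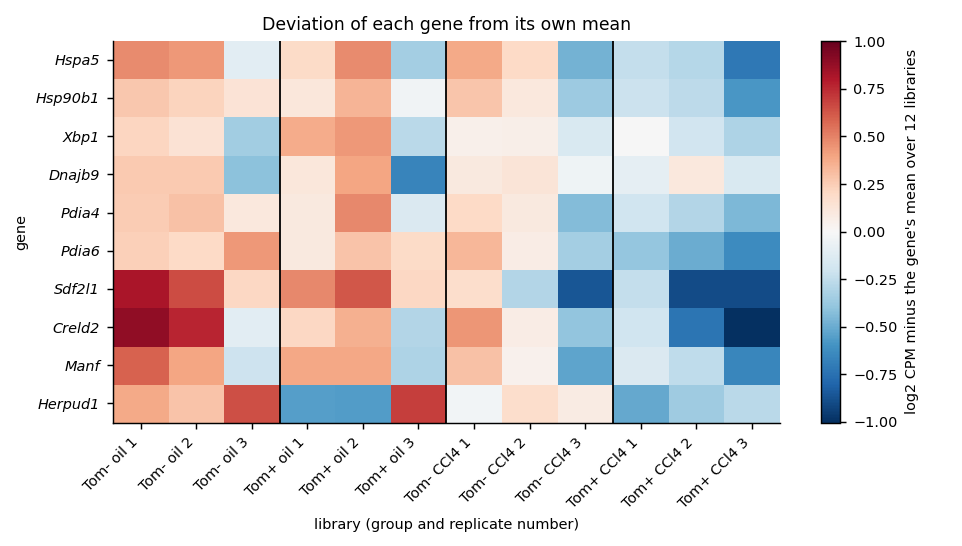
Log2 CPM of each member (rows) in each of the 12 libraries (columns, by group and replicate number) minus the gene's mean over the 12 libraries; red is above and blue below the mean. Most members are above their mean in the oil libraries of replicates 1 and 2 and below it in Tom+ CCl4, and Herpud1 departs from this in Tom+ oil.

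The comparison of Tom+ with Tom- hepatocytes in CCl4-treated mice asks how p16Ink4a-marked cells differ from the other hepatocytes of the injured liver. In TMM-scaled CPM, all 10 members were lower in Tom+, in each of the 3 same-numbered pairs, with a median log2 difference of -0.38 against 0.00 over all genes tested. Pdia6 fell, with 201 ± 17.1 CPM in Tom+ against 294 ± 67.0 CPM in Tom- (SD, n = 3; log2 difference -0.55, SE 0.14, adjusted p = 0.0387). It was the only member to pass the test, 1 of 10, while 3.83% of all genes tested were lower at this threshold, and 0 members also passed a log2 difference beyond 0.75. At an unadjusted p under 0.05, 2 members would be counted (Pdia6 and Hsp90b1), as would 3901 of all 17121 genes. Herpud1, at 302 ± 25.5 against 413 ± 28.7 CPM, did not overlap between the groups either, and its log2 difference of -0.45 (SE 0.28) had an adjusted p of 0.385. The share of all genes without overlap was not worked out for this or any later comparison, so a lack of overlap is description only. The largest difference was that of Creld2 (-0.68, SE 0.32, adjusted p = 0.239), followed among the rest by Hspa5 (-0.48, SE 0.26, adjusted p = 0.297) and Hsp90b1 (-0.38, SE 0.15, adjusted p = 0.166). Xbp1 and Dnajb9 differed least, at -0.15 (SE 0.18) and -0.10 (SE 0.24).

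The libraries of Tom+ and Tom- that carry one number deviated together from their group means, and blocking on the number changed the count. With the replicate number as a block, 5 members fell, against 6.25% of all genes tested: Hspa5 (adjusted p = 0.0172), Hsp90b1 (adjusted p = 0.0453), Pdia6 (adjusted p = 0.0276), Creld2 (adjusted p = 0.00575) and Manf (adjusted p = 0.0449). In a fit chosen after seeing the data, with a separate term for each of the 6 pairs of a treatment and number, Sdf2l1 was added (log2 difference -0.36, SE 0.10, adjusted p = 0.0328) and the count was 6, against 9.72% of all genes. In that fit Creld2 had a log2 difference of -0.69 (SE 0.09, adjusted p = 0.000257) and Hspa5 one of -0.45 (SE 0.08, adjusted p = 0.00294). Pdia4 (adjusted p = 0.0645), Xbp1 (adjusted p = 0.137), Dnajb9 (adjusted p = 0.381) and Herpud1 (adjusted p = 0.138) did not pass in it. Without the 2 oil libraries that go against the reporter, the number block still gave 5 members (the same genes), against 6.86% of all genes lower. The fit without a block gave 0 (Pdia6 adjusted p = 0.0562), against 3.85%.

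The call of Pdia6 without a block depended on which libraries shared the fit. Fitted on the 6 CCl4 libraries alone, Herpud1 passed (log2 difference -0.46, SE 0.10, adjusted p = 0.0392) and Pdia6 did not (-0.56, SE 0.16, adjusted p = 0.0808). The call was lost in 8 of 12 fits that each left out 1 library. The adjusted p was 0.0542 without Tom- oil replicate 1, 0.0527 without Tom- oil replicate 2, 0.0516 without Tom+ oil replicate 1, 0.125 without Tom- CCl4 replicate 1, 0.136 without Tom- CCl4 replicate 2, and 0.0722, 0.127 and 0.104 without Tom+ CCl4 replicates 1, 2 and 3. Hsp90b1 passed without Tom- CCl4 replicate 3 (adjusted p = 0.0400) and Herpud1 without Tom+ oil replicate 3 (adjusted p = 0.0318), an oil library that widens the spread of that gene. With the number block, leaving out 1 replicate number in all groups gave 1 member without replicate 1 (Creld2), 0 without replicate 2 and 6 without replicate 3. Scaling by library totals alone moved the median of all genes to 0.15. Under it the median of the members was -0.22, 0 members passed (Pdia6 adjusted p = 0.0692) and Dnajb9 turned to 0.04, so that the direction of Dnajb9 depends on the scaling. In mean TPM, to which no TMM factor was applied, Dnajb9 (68.5 against 62.5) and Xbp1 (95.6 against 90.3) were above Tom- in Tom+ CCl4, and the other 8 were below. The agreement of the pairs also depended on the scaling. In pair 3, TPM was higher in Tom+ CCl4 for Pdia4 (164 against 142), Sdf2l1 (37.1 against 32.6) and Manf (40.6 against 37.8). The same held there for Hsp90b1 (322.1 against 319.6), Xbp1 and Dnajb9, while Hspa5, Pdia6, Creld2 and Herpud1 were lower.

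Markers of position and of other cells moved with this comparison. In a list of 7 zone 1 genes, which mark hepatocytes around the portal vein, 4 fell, against 3.83% of all genes. The summed level of the 7 was 3275 to 4278 CPM in Tom+ CCl4 against 5311 to 6776 CPM in Tom- CCl4. For 7 zone 3 genes, which mark those around the central vein, the sum was 3054 to 4105 CPM against 1294 to 2189 CPM, with 0 of 7 past the test. Of 6 endothelial markers 5 fell, against 3.83% of all genes, with sums of 111 to 149 CPM against 210 to 230 CPM. All 6 were above 3 counts in every library. For plasma cells, which express ER chaperones strongly, the sum of 6 markers was at most 1.57 CPM in CCl4 and at most 4.99 CPM in oil (Tom+ oil replicate 3). Of the 6, 3 were above 3 counts in every Tom- CCl4 library and 2 in every Tom+ CCl4 library. Igha was at 0 in all 6 CCl4 libraries. The part of zones, endothelial cells and plasma cells in the members' differences was not tested.

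**Figure D4:**
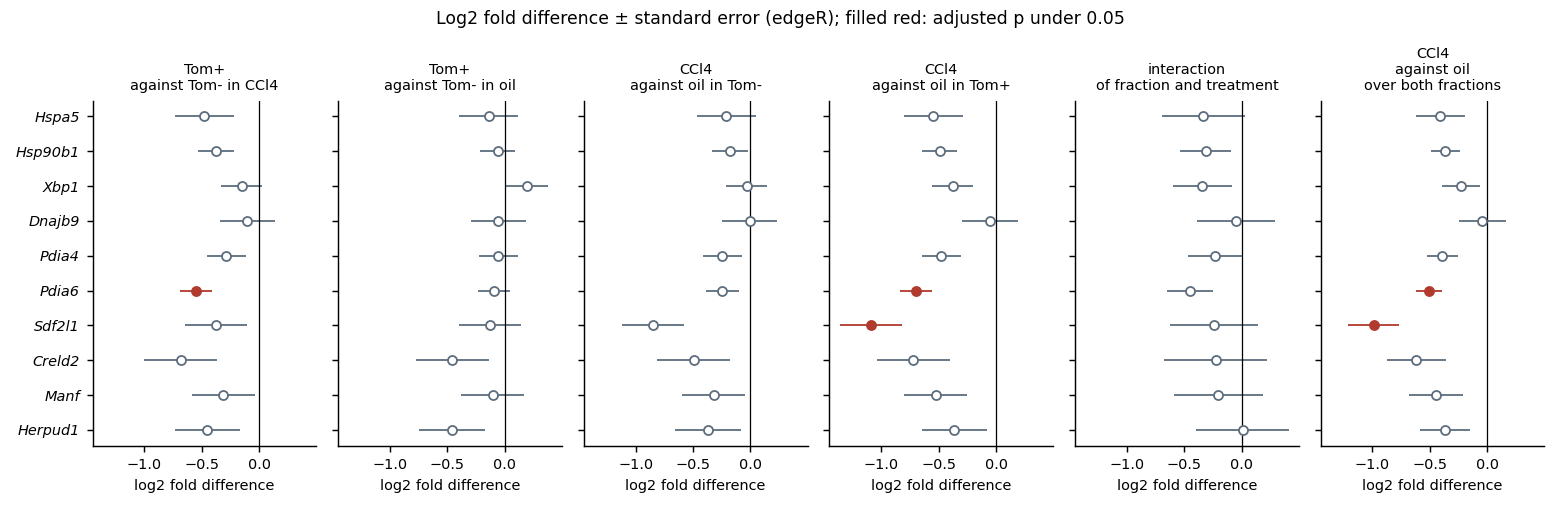
Log2 fold difference (x axis) ± standard error of each member in 6 comparisons, from edgeR's fit without a block; filled red points have an adjusted p under 0.05. Pdia6 is red in 3 panels and Sdf2l1 in 2, and in oil the points lie near 0 except Creld2 and Herpud1, both at -0.46.

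In oil, where the same question is asked of the uninjured liver, no member passed the test between the fractions. By edgeR 0 of the 10 members passed the test, as did 0 of all 17121 genes (0%), and 1198 genes but 0 members had an unadjusted p under 0.05; DESeq2 and limma-voom also counted 0 members. The median log2 difference was -0.10, against 0.01 over all genes. With the number block the count was again 0 members and 0 genes (0%). With the pair terms it was 0 members, while 0.45% of all genes were lower, and Creld2, lower in Tom+ in 3 of 3 pairs, came closest (-0.43, SE 0.09, adjusted p = 0.0504). Herpud1 was lower in Tom+ by 0.94 and 0.85 on the log2 scale in pairs 1 and 2 and higher by 0.04 in pair 3. Its adjusted p was 0.796 with all libraries (log2 difference -0.46, SE 0.28) and 0.00675 without the library labelled Tom+ oil replicate 3 (-1.004, SE 0.13). In oil pair 1 both libraries were high in the reporter (1794 CPM in Tom- and 1546 CPM in Tom+), and in pair 2 both were low (157 and 135 CPM). By the reporter, only pair 3 set a high library (Tom+, 1225 CPM) against a low one (Tom-, 143 CPM). The direction of the Herpud1 difference is thus that of the labels only. The same limit holds for the oil pair counts and the oil pair terms of all members. Without the 2 oil libraries that go against the reporter, Herpud1 had -0.30 (SE 0.32), and 0 members passed.

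The comparison of CCl4 with oil asks what the treatment changed in each fraction. In Tom- hepatocytes all 10 members had a log2 difference below 0, with a median of -0.25 against 0.00 over all genes. By edgeR 0 members passed the test, with 6.75% of all genes lower. At an unadjusted p under 0.05 there was 1 member (Sdf2l1), against 5388 of all 17121 genes. DESeq2 and limma-voom each counted Sdf2l1. DESeq2 had 8.64% of all genes lower, and for limma-voom this share was not worked out. The values of Sdf2l1 were 25.8 ± 9.03 CPM in Tom- CCl4 against 46.5 ± 9.71 CPM in Tom- oil (SD, n = 3), a log2 difference of -0.85 (SE 0.27, adjusted p = 0.0576). The groups of Sdf2l1 and of Herpud1 (-0.37, SE 0.28, adjusted p = 0.407) did not overlap. Sdf2l1 passed without Tom- oil replicate 3 (adjusted p = 0.0428), without Tom- CCl4 replicate 1 (0.0189) and without Tom+ CCl4 replicate 1 (0.0441), and Herpud1 without Tom+ oil replicate 3 (0.0360). Dnajb9 (-0.01, SE 0.24) and Xbp1 (-0.03, SE 0.18) were closest to 0 and changed sign under 11 and 7 of 26 alternatives. Without the 2 oil libraries that go against the reporter, Sdf2l1 had -0.71 (SE 0.31, adjusted p = 0.203).

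In Tom+ hepatocytes the median log2 difference between CCl4 and oil was -0.51 against 0.00 over all genes, and all 10 members were again below 0. Pdia6 fell from 325 ± 21.6 CPM in Tom+ oil to 201 ± 17.1 CPM in Tom+ CCl4 (SD, n = 3; log2 difference -0.70, SE 0.14, adjusted p = 0.00828). Sdf2l1 fell from 42.4 ± 6.09 to 19.9 ± 5.56 CPM (log2 difference -1.09, SE 0.27, adjusted p = 0.0312). These 2 of 10 passed the test, against 4.56% of all genes lower, and Sdf2l1 alone also passed the fold threshold, against 2.34% of all genes. Hsp90b1 (-0.49, SE 0.15, adjusted p = 0.0629) and Pdia4 (-0.48, SE 0.17, adjusted p = 0.0994) did not pass, and their groups did not overlap. For Creld2 (-0.72, SE 0.32), Hspa5 (-0.55, SE 0.26), Manf (-0.53, SE 0.27), Xbp1 (-0.38, SE 0.18) and Herpud1 (-0.36, SE 0.28) the adjusted p was between 0.200 and 0.486, and Dnajb9 was at -0.05 (SE 0.24). The sign of Dnajb9 changed under 7 and that of Herpud1 under 2 of 26 alternatives.

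Pdia6 kept its call in Tom+ under each of 12 fits that left out 1 library (adjusted p 0.00148 to 0.0423). Sdf2l1 lost it in 4, with an adjusted p of 0.0921 without Tom+ oil replicate 1, 0.102 without Tom+ oil replicate 2, 0.106 without Tom+ CCl4 replicate 2 and 0.138 without Tom+ CCl4 replicate 3. Without Tom+ oil replicate 3 the count of members was 5, with Hsp90b1 (adjusted p = 0.0491), Xbp1 (0.0311) and Pdia4 (0.0398) added, and without Tom- CCl4 replicate 3 it was 4. Without the 2 oil libraries that go against the reporter it was 0, with Pdia6 at -0.64 (SE 0.17, adjusted p = 0.0519) and Sdf2l1 at -0.99 (SE 0.31, adjusted p = 0.119).

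The comparison that does not use the fraction labels adds the counts of the same-numbered Tom+ and Tom- libraries of each treatment, 3 sums against 3. Pdia6 fell, from a mean of 339 CPM in oil to 238 CPM in CCl4 (log2 difference -0.51, SE 0.11, adjusted p = 0.0288), and so did Sdf2l1, from 44.2 to 22.2 CPM (log2 difference -0.99, SE 0.22, adjusted p = 0.0426). The 2 of 10 stand against 3.24% of 17743 genes tested that were lower, and Sdf2l1 alone passed both thresholds, against 1.44%. All 10 members were below 0, with a median of -0.40. The sums of Hsp90b1 (-0.36, SE 0.13, adjusted p = 0.116) and Pdia4 (-0.39, SE 0.14, adjusted p = 0.110) did not overlap between treatments. DESeq2 counted 5 members, adding Hsp90b1, Pdia4 and Creld2, with 6.45% of all genes lower. Each call of this comparison was lost in 4 of the 6 fits that left out 1 sum: Pdia6 without oil replicate 1 (adjusted p = 0.0679), oil replicate 2 (0.0861), oil replicate 3 (0.0602) or CCl4 replicate 2 (0.0859), and Sdf2l1 without oil replicate 1 (0.134), oil replicate 2 (0.116), CCl4 replicate 2 (0.119) or CCl4 replicate 3 (0.0799). With the 2 oil libraries left out of the sums, Pdia6 had an adjusted p of 0.0698 and Sdf2l1 one of 0.0560.

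Cells other than hepatocytes also differed between treatments. The summed level of 8 stellate cell markers, all above 3 counts in each library, was 7.25 to 22.8 CPM in oil and 51.3 to 105 CPM in CCl4. Of these 8, 6 rose in Tom- and 5 in Tom+ by edgeR without a block. For 6 Kupffer cell and macrophage markers the sum was 10.8 to 81.6 CPM in oil and 44.9 to 137 CPM in CCl4. By edgeR without a block 0 of these 6 passed between treatments in either fraction, with median log2 differences of 1.41 in Tom- and 0.79 in Tom+. With the replicate block 5 of the 6 rose in Tom- and 2 in Tom+, against 12.6% and 7.46% of all genes higher. The sum of these 6 markers was highest in replicate 3 of every group (57.9 CPM in Tom- oil, 81.6 in Tom+ oil, 88.7 in Tom- CCl4 and 137 in Tom+ CCl4). By edgeR without a block, 9.37% of all genes rose and 6.75% fell with CCl4 in Tom-, and 4.91% rose and 4.56% fell in Tom+. Of 6 endothelial markers 6 rose with CCl4 in Tom- and 0 in Tom+. Of the 7 zone 1 genes 7 fell in Tom+, while in Tom- 0 fell and 1 rose. Of the 7 zone 3 genes 3 rose in Tom+, with sums of 3054 to 4105 CPM in CCl4 against 737 to 2444 CPM in oil, and 1 fell in Tom-, with sums of 1294 to 2189 CPM against 1905 to 5003 CPM. The part of these cells and zones in the members' differences was not tested.

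The interaction asks whether the difference between Tom+ and Tom- is another in CCl4 than in oil. The log2 value was below 0 in 9 of 10 members, with a median of -0.24 against -0.01 over all genes. By edgeR 0 members passed, with 1.07% of all genes lower, and DESeq2 and limma-voom counted 0. At an unadjusted p under 0.05 edgeR had 1 member (Pdia6), against 3178 of all 17121 genes. The number block also gave 0 members, against 3.24% of genes. With the pair terms 2 members passed, against 7.18% of genes: Pdia6 (-0.43, SE 0.12, adjusted p = 0.0349) and Xbp1 (-0.33, SE 0.10, adjusted p = 0.0384). Without a block these were -0.45 (SE 0.20, adjusted p = 0.249) and -0.34 (SE 0.26, adjusted p = 0.504). The oil part of the interaction rests on the labels that the reporter contradicts, and without those 2 libraries Pdia6 had -0.38 (SE 0.24, adjusted p = 0.557) and Xbp1 -0.32 (SE 0.27, adjusted p = 0.689). The fit with pair terms used every oil pair, of which by the reporter only pair 3 sets a high library against a low one.

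Other genes of the secretory pathway and the heat shock genes were followed in 6 fixed lists. Most of their calls between CCl4 and oil were lost without the 2 oil libraries that go against the reporter. There 0 of 12 calls were kept for CCl4 against oil in Tom+ (adjusted p 0.0553 to 0.210), 2 of 11 in Tom- (Hspd1 and Hspb1) and 1 of 8 over both fractions (Psat1), all with the same sign as before. In that fit 2.12% of all genes were lower and 3.09% higher with CCl4 in Tom+, against 4.56% and 4.91% with all libraries. For Tom+ against Tom- in CCl4 5 of 7 calls were kept, and Hspb1 (adjusted p = 0.0671) and Dad1 (adjusted p = 0.0551) were lost. The values that follow are those with all libraries unless said otherwise.

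Of 17 further ER folding genes, all 17 were lower in Tom+ CCl4 than in Tom- CCl4 (median -0.20), and 1 fell by the test, against 3.83% of all genes, namely Sil1, the nucleotide exchange factor of BiP (log2 difference -0.58, SE 0.10, adjusted p = 0.00694). Sil1 was also the 1 of 17 whose interaction passed (-0.60, SE 0.14, adjusted p = 0.0487), against 1.07% of all genes lower. It had 67.8 ± 6.63 CPM in Tom- CCl4 and 45.4 ± 1.81 CPM in Tom+ CCl4 against 61.3 ± 3.83 and 62.1 ± 6.57 CPM in oil (SD, n = 3). The oil part of this interaction rests on labels of which the reporter contradicts 2, and without those libraries the interaction was -0.48 (adjusted p = 0.175). For Tom+ against Tom- in CCl4, 3 of the 17 fell with the number block, against 6.25% of all genes, and 8 with the pair terms, against 9.72%. Between CCl4 and oil in Tom+, 6 of 17 fell, against 4.56% of all genes, and 0 rose: Sil1 (-0.45), the lectin chaperone gene Calr (-0.78, SE 0.18, adjusted p = 0.0144), the disulfide isomerase gene Pdia3 (-0.62) and the oxidase gene Ero1b (-0.59), besides Dnajc3 and Dnajb11. Without the 2 oil libraries Calr had -0.71 (adjusted p = 0.0762), Pdia3 -0.52 (adjusted p = 0.105) and Sil1 -0.37 (adjusted p = 0.0655). In Tom- the BiP co-chaperone gene Dnajc3 fell (-0.34, SE 0.11, adjusted p = 0.0441) and no other of the 17 passed, against 6.75% of all genes lower. Canx, the membrane-bound partner of Calr, had values of -0.16 (SE 0.11) for Tom+ against Tom- in CCl4 and -0.23 (SE 0.11) for CCl4 against oil in Tom+, and did not pass. Over both fractions 4 of 17 fell (Ero1b, Pdia3, Calr and Dnajc3), against 3.24% of all genes.

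ER-associated degradation returns misfolded chains to the cytosol. Of 16 genes of this list, 2 fell in Tom+ CCl4 against Tom- CCl4, where 3.83% of all genes did, namely Derl2, a part of the export channel (-0.40, SE 0.09, adjusted p = 0.0186), and Os9, a lectin that delivers glycoproteins to it (-0.49, SE 0.11, adjusted p = 0.0236). Os9 also fell with CCl4 in Tom+ (-0.52, SE 0.11, adjusted p = 0.0106), as 1 of 16 against 4.56% of all genes lower. Derl3 fell with CCl4 in Tom- (-2.17, SE 0.65, adjusted p = 0.0437) and over both fractions (-2.30, SE 0.41), from 4.39 ± 0.52 CPM in Tom- oil to 0.98 ± 0.52 CPM in Tom- CCl4, a low level. It was 1 of 16 in each, against 6.75% and 3.24% of all genes lower. Within the translocon and glycosylation list of 19 genes, Dad1 fell in Tom+ CCl4 against Tom- CCl4 (-0.29), Ddost with CCl4 in Tom+ (-0.39) and Spcs3 with CCl4 in Tom- (-0.27), and the other 16 passed in none of these 3 comparisons. This is 1 of 19 in each, against 3.83%, 4.56% and 6.75% of all genes lower.

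The genes of the sensors themselves showed small differences. Ern1, which encodes IRE1, Eif2ak3, which encodes PERK, and Atf6 passed the test in none of the 6 comparisons. Their log2 differences between Tom+ and Tom- in CCl4 were -0.09 (SE 0.09), -0.01 (SE 0.15) and 0.05 (SE 0.09). Of the 9 genes of this list, Creb3l3, a membrane-bound factor of hepatocytes that is cut like ATF6, fell in Tom+ CCl4 against Tom- CCl4 (-0.51, SE 0.10, adjusted p = 0.0113) and with CCl4 in Tom+ (-0.42, SE 0.10, adjusted p = 0.0149). It was 1 of 9 in each, against 3.83% and 4.56% of all genes lower. Its level was 229 ± 4.03, 201 ± 16.6, 213 ± 22.8 and 150.2 ± 8.87 CPM in Tom- oil, Tom+ oil, Tom- CCl4 and Tom+ CCl4 (SD, n = 3). Creb3l1 rose with CCl4 in Tom- (1.78, adjusted p = 0.0321), at a level under 1 CPM, as 1 of 9 against 9.37% of all genes higher.

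The PERK branch acts through ATF4 and CHOP, the product of Ddit3, and its 12 genes went in both directions. None of them passed between Tom+ and Tom- in CCl4 by edgeR, against 3.83% of all genes lower and 1.96% higher. At an unadjusted p under 0.05 there were 2 of the 12, against 3901 of all 17121 genes. With CCl4 in Tom-, Ddit3 rose from 4.70 ± 0.70 to 7.57 ± 1.91 CPM (log2 difference 0.69, SE 0.21, adjusted p = 0.0426) and Psat1, an enzyme of serine synthesis, from 0.44 ± 0.06 to 1.46 ± 0.75 CPM (1.75, SE 0.47, adjusted p = 0.0226), while Trib3, a target of both factors, fell from 3.93 ± 0.54 to 1.65 ± 0.85 CPM (-1.26, SE 0.31, adjusted p = 0.0155). Thus 2 of 12 rose and 1 fell, against 9.37% of all genes higher and 6.75% lower. In Tom+ Psat1 rose (2.08, SE 0.46, adjusted p = 0.0130) and the other 11 did not pass, against 4.91% of all genes higher. Atf4 had values of 0.25 (SE 0.11, adjusted p = 0.119) in Tom- and 0.10 (SE 0.10, adjusted p = 0.619) in Tom+.

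Chaperones outside the ER were followed in a list of their own. Of 12 cytosolic and mitochondrial heat shock genes, 11 were higher in Tom+ CCl4 than in Tom- CCl4 (median 0.27), and 2 rose, against 1.96% of all genes, namely Hsp90aa1, the cytosolic paralog of Hsp90b1 (0.42, SE 0.10, adjusted p = 0.0236), and the small heat shock gene Hspb1 (1.16, SE 0.30, adjusted p = 0.0392). Hsp90aa1 had 266 ± 28 CPM in Tom+ CCl4 and 199 ± 10.3 CPM in Tom- CCl4, and 225 ± 1.64 and 248 ± 22.3 CPM in Tom+ and Tom- oil (SD, n = 3). With CCl4 in Tom-, 4 of 12 fell, against 6.75% of all genes, among them the mitochondrial chaperonin gene Hspd1 (-0.51, SE 0.10, adjusted p = 0.00509), together with Hspb1, Hsp90aa1 and Hsph1. With CCl4 in Tom+, where 4.91% of all genes rose, the stress-inducible genes Hspa1a (1.14, SE 0.30, adjusted p = 0.0316) and Hspa1b (1.13, SE 0.22, adjusted p = 0.00987) rose, which are near-identical copies that share reads. The interaction was above 0 in 11 of the 12, with 0 past the test by edgeR. At an unadjusted p under 0.05 there were 8 of the 12, against 3178 of all 17121 genes. With the number block 3 of the 12 interactions passed, against 1.75% of all genes above 0, and with the pair terms 6, against 5.3%, all of them above 0. Without the 2 oil libraries 0 of the 12 passed by edgeR, with 4 at an unadjusted p under 0.05, both with the number block and without it. The share of all genes at this unadjusted p was not worked out without these libraries. Whether the ER and cytosolic lists differ from each other was not tested.

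**Figure D5:**
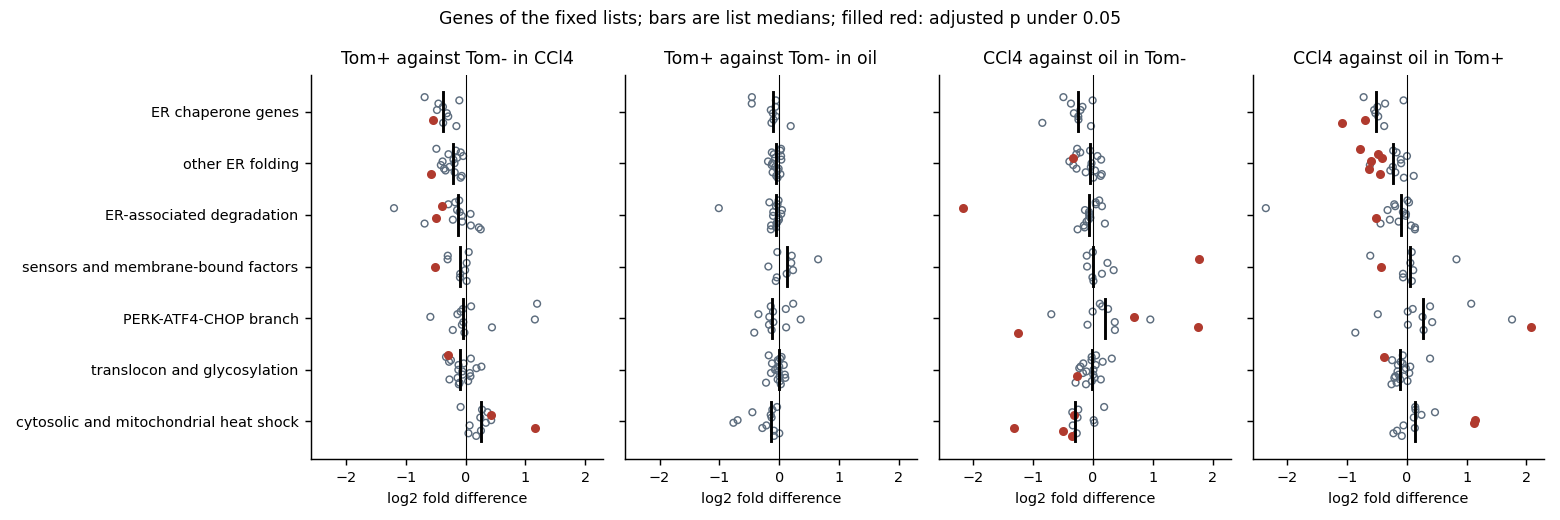
Log2 fold difference (x axis) of every gene of the 10 members and of 6 fixed lists in 4 comparisons; black bars are list medians and filled red points have an adjusted p under 0.05. In Tom+ against Tom- in CCl4 the median is -0.38 for the members and 0.27 for the cytosolic and mitochondrial heat shock genes, and in oil no point is red.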

How the data were processed

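RNA of sorted Tom+ and Tom- hepatocytes was sequenced in 12 libraries, and groups and replicate numbers were taken from the labels. Per the labels and the study's methods, the authors checked reads with fastp (0.23.2), aligned them to mm10 with HISAT2 (2.1.0) and tested genes with DESeq2 (1.42.1). The values the authors deposited are each an expected count (an estimated count) per feature, not normalized, with each feature's position and length, and 30.4% to 32.9% of a library's non-zero values were not whole. They were rounded before testing, where the design had assumed counts. Symbols were matched for 54723 of 54839 features, and all sample columns were used.

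Counts were analysed in R (4.3.3) with edgeR (4.0.16): TMM, filterByExpr, and the robust quasi-likelihood test in one fit of 4 group coefficients. Calls used a Benjamini-Hochberg adjusted p under 0.05, and the stricter count also a log2 difference beyond 0.75. Log2 CPM for correlations used a prior count of 2. The same-numbered libraries deviated together between Tom- and Tom+ (r over 17121 genes 0.187 to 0.401 in CCl4 and 0.205 to 0.318 in oil), and the pairing comes from the numbers in the labels, which do not say that a number is 1 mouse. Across treatments they did not pass the limit of 0.1 in every pair.

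The members, gene lists, markers and tests were chosen with earlier results of these data known. All members were named, and of each other list at most the 4 genes with the lowest adjusted p under 0.05 per comparison, together with Calr, Canx, Ern1, Eif2ak3, Atf6, Ddit3 and Atf4; Dnajc3 and Dnajb11 in Tom+ were named after their values were seen. Alternatives were DESeq2 (1.42.0), limma-voom (limma 3.58.1), RLE and upper-quartile scaling, no filter, at least 10 counts in every library, 6-library fits, the replicate block, and leaving out libraries. Scripts were tested on simulated data with 200 changed genes. For Tom+ against Tom- in CCl4, edgeR without a block recovered 25.7% of 70 changes of 1.5-fold and 73.4% of 64 changes of 2-fold. The lack of a call therefore does not show that a gene was unchanged. A level of 3 counts corresponded to 0.0369 to 0.0829 CPM. Figures were drawn with Python (3.11.15) and matplotlib (3.10.9).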

Additional observations from a re-analysis of the deposited data

Results flagged for a closer look

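In TMM-scaled CPM, Xbp1 differed between treatments in the direction of its fraction difference. Tom+ was above the same-numbered Tom- library in all 3 oil pairs and below it in all 3 CCl4 pairs, and the interaction was -0.34 on the log2 scale without a block (edgeR, adjusted p = 0.504). This direction depends on the scaling. With library totals alone, edgeR gave Xbp1 a difference of -0.003 in CCl4 (adjusted p = 0.993) and an interaction of -0.20 (adjusted p = 0.700). With a term for each of the 6 pairs and TMM scaling, the interaction of Xbp1 was -0.33 and passed the test (adjusted p = 0.0384), and Pdia6 also passed there with -0.43 (adjusted p = 0.0349). By the reporter, only oil pair 3 sets a high library against a low one. Both interactions rest on oil labels of which 2 go against the reporter, and the fit with pair terms was chosen after seeing the data. Without those 2 libraries, and with the number block, the adjusted p was 0.488 for Xbp1 and 0.617 for Pdia6.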

How the results depend on the processing

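Each member had at least 762 counts in every library, and 3 libraries a group set the precision. Of 1480 repeats of a member's log2 difference over 60 member and comparison pairs, 0 reversed a called value, 67 changed the sign of a value that was not called, 84 gained and 33 lost the call.

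Counts of members past both thresholds and, after them, past the adjusted p alone follow. For Tom+ against Tom- in CCl4 (0 and 1), leaving out 1 library gave 0 in every case and 0 to 2, leaving out the 2 oil libraries that go against the reporter gave 0 and 0, and library totals alone gave 0 and 0. For Tom+ against Tom- in oil (0 and 0), leaving out 1 library gave 0 to 1 and 0 to 1. For CCl4 against oil in Tom- (0 and 0), DESeq2, limma-voom and library totals alone each gave 1 and 1, leaving out 1 library 0 to 1 and 0 to 1, and leaving out the 2 oil libraries 0 and 0. For CCl4 against oil in Tom+ (1 and 2), no filter gave 0 and 1, leaving out the 2 oil libraries 0 and 0, and leaving out 1 library 0 to 2 and 1 to 5. For the sums over both fractions (1 and 2), DESeq2 gave 5 by the adjusted p, no filter and library totals alone each gave 0 and 1, the average over 12 libraries 4 by the adjusted p, leaving out the 2 oil libraries 0 and 0, and leaving out 1 sum 0 to 1 and 0 to 2. The interaction (0 and 0) stayed at 0 when 1 library was left out. Dropping the fold threshold moved the stricter count to 1 in Tom+ against Tom- in CCl4 and to 2 in CCl4 against oil in Tom+ and over both fractions. The cause of these shifts was not tested. RLE and upper-quartile scaling, a minimum of 10 counts in every library and fits of the 6 libraries of a comparison stayed within 1.5 times of each count, but on the 6 CCl4 libraries Herpud1 (adjusted p = 0.0392) was counted and Pdia6 (adjusted p = 0.0808) was not.

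With the replicate block, the count by the adjusted p was 5 for Tom+ against Tom- in CCl4, 3 for CCl4 against oil in Tom- (1 past both thresholds), 8 in Tom+ and 6 over both fractions, with 9.49%, 6.92% and 5.05% of all genes lower in these last 3. Across treatments, r over all genes was 0.00898 to 0.0483 in Tom- and 0.0182 to 0.226 in Tom+, where replicate 3 was highest. The mean of the members' standardized log2 CPM was lowest in replicate 3 of all 4 groups. It was 0.01 there in Tom- oil, -0.36 in Tom+ oil, -0.87 in Tom- CCl4 and -1.40 in Tom+ CCl4. The labels do not tie a number across treatments, and what a shared number stands for in these gains with CCl4 was not tested. With the replicate block and without the 2 oil libraries the counts were 5 for Tom+ against Tom- in CCl4, 5 for CCl4 against oil in Tom+ and 3 in Tom- (1 past both thresholds). In that fit 6.86%, 4.29% and 6.8% of all genes were lower in these comparisons. With the block as 6 pair terms the counts were 6 in CCl4 and 2 for the interaction, against 9.72% and 7.18% of all genes lower. With the replicate block and without replicate 1, 2 or 3 in every group, the count was 0 to 6 for Tom+ against Tom- in CCl4, 0 to 1 in oil (0 to 1 past both), 1 to 3 for CCl4 against oil in Tom- (1 past both in each case), 7, 2 and 8 in Tom+ (1 to 3 past both) and 0 to 1 for the interaction. Shares of all genes were not worked out for limma-voom, library totals alone, no filter or the average over 12 libraries. They were also not worked out for the fits that left out 1 library, 1 sum or 1 replicate number. The blocked fits without libraries, the pair terms, library totals alone, the gene lists without the 2 oil libraries and the alternatives at the adjusted p alone were chosen after seeing the data.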
